A study of Mus musculus with 6 samples.

Results

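The genes described here encode the proteins of the cytosolic ribosome. They were found by name in the deposited count tables, as every gene called Rpl or Rps with a number and an optional suffix of the letters a, l, x or y, together with Rplp0, Rplp1, Rplp2 and Rpsa, and without entries marked as pseudogenes by -ps. There were 90 such genes among the 53546 genes of the tables, 54 for the large and 36 for the small subunit, on 19 chromosomes. Of these, 87 had enough counts to enter the test of 20541 genes. The name rule also takes in paralogs such as Rpl3l and Rps4l. It leaves out ribosomal proteins with other names, of which Fau and Rack1 are given separately.

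The RNA was that of non-parenchymal liver cells, which are the sinusoidal endothelium, the stellate cells and the resident and recruited leukocytes. All 6 mice were male and had received acetaminophen, 400 mg/kg, into the peritoneum, with cells taken 6 h later. Wild type mice gave 3 libraries and SRA-/- mice, without scavenger receptor A (Msr1), gave the other 3, and the sample titles call the replicates biological. Neither age, strain nor the way in which the receptor gene was disrupted is stated in the labels. The design gives 1 comparison, of the genotypes, and both had the drug. Untreated animals were not analysed here, so no value below is a response to acetaminophen.

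Each ribosome joins a large and a small subunit, each built from ribosomal RNA and one copy of most of these proteins. Cells assemble the proteins in matched amounts and tend to regulate the genes together. Many ribosomal protein mRNAs begin with a C and a run of pyrimidines, the terminal oligopyrimidine (TOP) tract, through which mTORC1 and Larp1 regulate their translation. The genes have also left many processed pseudogenes, and several carry small nucleolar RNAs (snoRNAs) in their introns. Both features bear on how reads from these genes are counted.

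The totals ranged from 23757203 to 44003902 counts per library. At such depths 6 counts, the most that 3 fragments with both mates counted would give, correspond to 0.136 to 0.253 CPM, and this covers counting error only. CPM stands for counts scaled to a common library size, here after TMM factors. Msr1, counted over the whole gene, was at 38.6 to 114 CPM in wild type and 33.6 to 42.0 CPM in SRA-/- libraries. The ranges overlap, since wild type replicate 1 lay inside the SRA-/- range, and the genotypes below are those of the labels. Markers of the labelled fraction were present: the 6 endothelial markers summed to 1520 to 2884 CPM and the 7 Kupffer cell and macrophage markers to 542 to 1281 CPM across the libraries. Hepatocyte markers (10 genes, none at 0) were also high, at 28227 to 83981 CPM in wild type and 51139 to 99566 CPM in SRA-/- libraries. Wild type replicate 1 had the lowest endothelial and macrophage sums, and wild type replicate 3 the lowest hepatocyte sum.

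Among the 90 genes, RefSeq's table of gene starts (build GRCm38.p6, matched by symbol and not to the build of the counts) held 77 starts of 65. A tract was defined as a C followed by at least 7 further C or T on the gene's own strand, beginning between 10 bases before and 11 bases after the start. Such a tract lay at 25 of the 77 starts (32.5%), against 2749 of all 32851 starts in the table (8.37%). The same run on the opposite strand lay at 4 of the 77 (5.19%) and at 10.1% of all starts. The windows below run from 12 bases before the start to 17 after it, 5′ to 3′ on the gene's strand, with the longest run that opens with a C in capitals. The first 4 have the longest tracts, and the others belong to genes on which the results turn.
Rpl27a, chr7:109519183-109519212, plus strand: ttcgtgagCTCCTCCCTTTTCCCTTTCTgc
Rpl35, chr2:39005114-39005143, minus strand: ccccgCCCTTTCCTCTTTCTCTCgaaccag
Rpl7a, chr2:26910795-26910824, plus strand: ccCTCTTCTTTCTTTCTCCagcagccgagc
Rpl15, chr14:18270969-18270998, minus strand: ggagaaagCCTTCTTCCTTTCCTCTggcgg
Rplp2, chr7:141447639-141447668, plus strand: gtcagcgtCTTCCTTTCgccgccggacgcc
Rpl12, chr2:32961700-32961729, plus strand: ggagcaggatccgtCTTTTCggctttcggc
Rps13, chr7:116334173-116334202, minus strand: agCaaacgtcggtgagtggcgtcacttcct
Rpl4, chr9:64173375-64173404, plus strand: cttttCCTgtgggagcagccgggtagagag
Rps3a1, chr3:86142651-86142680, minus strand: aagCCggaagggcgaaagagcaagggtcac
The tract is 20 bases long in Rpl27a, 18 in Rpl35 and 17 in both Rpl7a and Rpl15. It is 9 bases in Rplp2 and 6 in Rpl12, while in Rpl4, Rps13 and Rps3a1 no run of more than 3 opens within the bases searched. In Rpl4 the capitals are the end of a longer run that opens before those bases, and in Rps13 a run that opens after them is in lower case. A listed start can lie off the start used in these cells, so no match says only that these letters are not here. The 25 tested genes with a tract had a median log2 fold change (SRA-/- against wild type) of 0.043, and the 38 with a shorter run one of 0.013.

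Ribosomal protein genes took a small and variable share of each library. In wild type replicates 1, 2 and 3 they held 0.204%, 0.319% and 0.385% of all gene counts. In SRA-/- replicates 1, 2 and 3 they held 0.324%, 0.291% and 0.262%. The group means were 0.303% ± 0.0914 and 0.292% ± 0.0313 (SD, n = 3), and the SRA-/- values all lay inside the wild type range. The wider spread was on the wild type side, where replicate 1 was lowest and replicate 3 highest. In a bulk sample fewer cells of a type and less RNA per cell cannot be told apart, and this holds for every value below. Summed to CPM, the large subunit genes were at 1551 ± 291 in wild type and 1582 ± 69.6 in SRA-/- libraries (SD, n = 3). The small subunit genes were at 1405 ± 348 and 1359 ± 79.4 CPM, so neither subunit's sum separated the groups.

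No ribosomal protein gene passed the test in either direction. Of the 87 tested genes, 0 had an adjusted p under 0.05 in edgeR's quasi-likelihood test with Benjamini-Hochberg adjustment over all genes, where 0.0487% of all tested genes were called (10 genes). The adjusted p was 0.9999 for each of the 87. DESeq2 called 0 of them (0.375% of all genes with an adjusted p) and limma-voom with quality weights called 0 (0.365% of all). At an unadjusted p under 0.05 edgeR had 2 of 87, Rpl12 and Rps3a3 (2.3%, against 3.22% of all tested genes). Both were higher in SRA-/- libraries (2.32% of all tested genes), and 0 members were lower (0.896% of all). DESeq2 had 3 of 87 at that level, Rpl12, Rps13 and Rps3a3 (3.45%, against 3.51% of all). Limma-voom also had 3, Rpl12, Rps13 and Rpl3l (3.45%, against 11.6% of all). The groups did not overlap in CPM for 2 of 87 genes, Rpl12 and Rpl3l (2.3%, against 7.3% of all tested genes). Both were higher in every SRA-/- library (3.97% of all in that direction), and 0 were lower in every one (3.33% of all). Each of these member counts is at or below the share for all tested genes.

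The fold changes lay close to 0. The median log2 fold change of the 87 genes was 0.036, with quartiles of -0.055 and 0.094, beside a median of -0.010 and quartiles of -0.17 and 0.17 over all tested genes. Of the 87, 50 lay above 0 and 37 below (9924 and 10617 of all 20541 tested genes). A log2 change under 0.5 in size was found for 82 of 87 (94.3%, against 86.2% of all tested genes). The 95% interval lay wholly inside a change of 1 on the log2 scale, which is a doubling or a halving, for 77 of 87 (88.5%, against 58.3% of all). Ribosomal protein genes were more abundant than the tested gene in general, with median levels of 20.8 and 5.76 CPM. By subunit the medians were 0.040 for the 52 large subunit genes and 0.026 for the 35 of the small subunit. The ranked plot of fold changes shows the whole set.

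**Figure D1:**
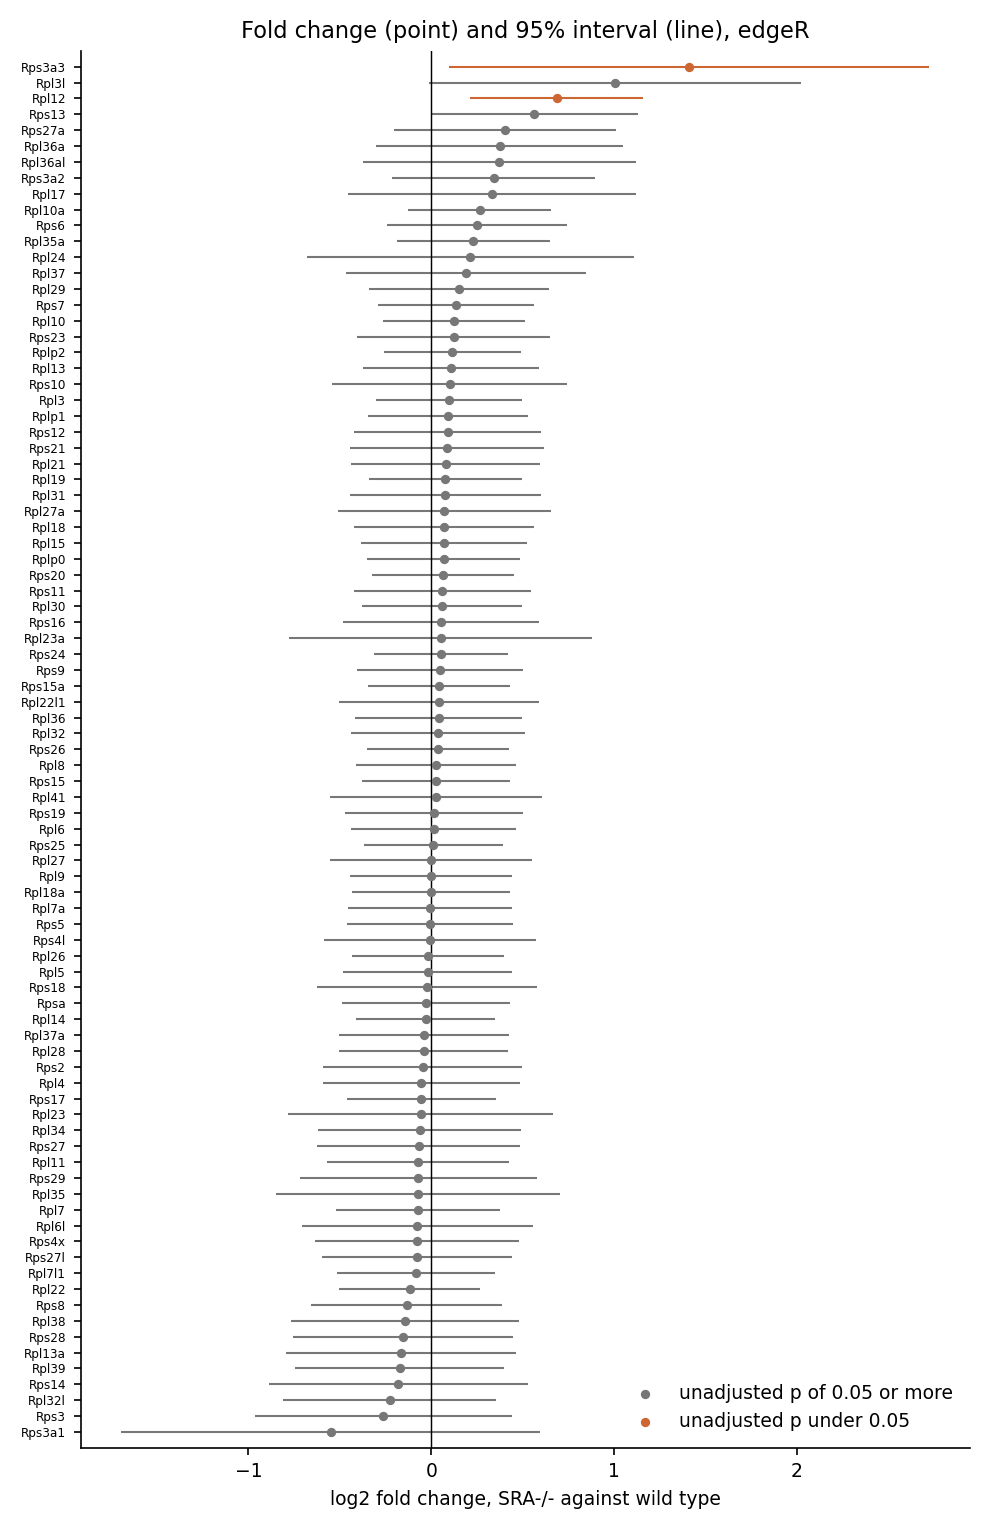
Log2 fold change of each of the 87 tested ribosomal protein genes in SRA-/- against wild type libraries (x axis), ranked, with the edgeR estimate as a point and its 95% interval as a line. Most points lie within 0.5 of 0, and the 2 genes in orange, Rpl12 and Rps3a3, have an unadjusted p under 0.05.

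For the median gene, libraries of one genotype differed by more than the genotypes did. Set against each gene's mean log2 CPM over the 6 libraries, the median ribosomal protein gene stood at -0.27, 0.056 and 0.14 in wild type replicates 1, 2 and 3. It stood at 0.11, 0.010 and -0.029 in SRA-/- replicates 1, 2 and 3. Over all tested genes the same medians lay between 0.0067 and 0.021. Wild type replicate 1 was the lowest of the 6 libraries for 51 of 87 genes (58.6%, against 22.8% of all tested genes). Wild type replicate 3 was the highest for 33 of 87, but the share over all tested genes was not taken for the highest library. Without wild type replicate 1 the median log2 fold change of the 87 genes was -0.041, without SRA-/- replicate 1 it was -0.0073, and without wild type replicate 3 it was 0.13. Hepatocyte marker sums in wild type replicates 1, 2 and 3 were 83981, 59950 and 28227 CPM, and 55859, 51139 and 99566 CPM in SRA-/- replicates 1, 2 and 3. Reads of the mitochondrial genome made up 6.64% to 21.1% of counts. The part of either in the differences between libraries was not tested.

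**Figure D2:**
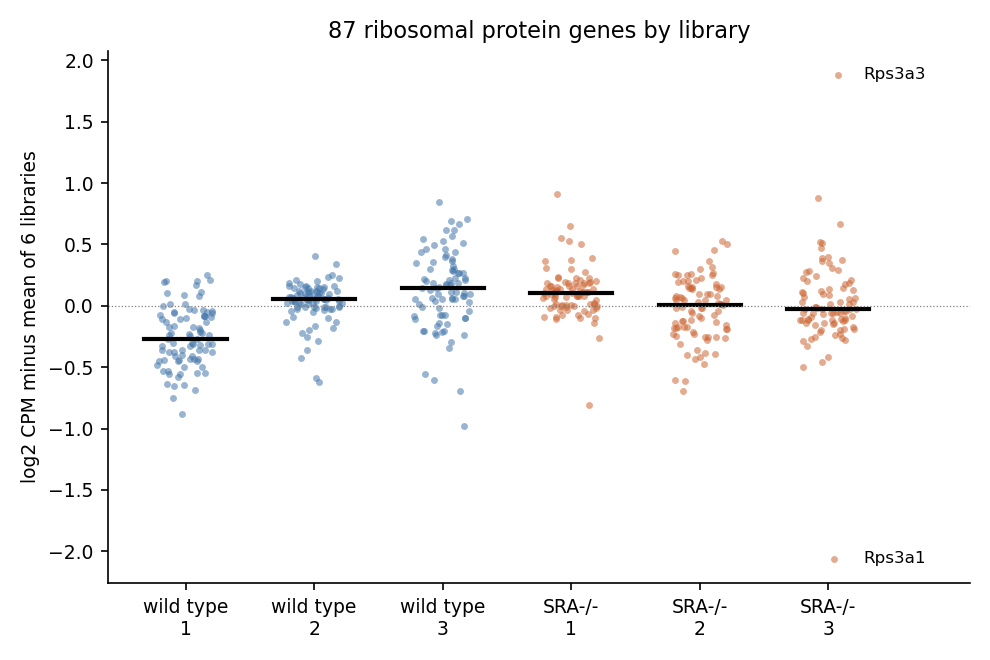
Log2 CPM of the 87 tested genes in each library as a difference from the gene's mean over 6 libraries (y axis), with the median as a black bar. The median is lowest in wild type replicate 1, at -0.27, and the outlying points of SRA-/- replicate 3 are Rps3a3 above and Rps3a1 below.

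Most of the genes shared this pattern across libraries. For 51 of 87 (58.6%) the correlation with the median of the other ribosomal protein genes over the 6 libraries was above 0.5, against 26.8% of all tested genes, and for 16 it was below 0. These are descriptions over 6 libraries that differ in depth and in marker sums of cell types, and the part of either was not tested. The closest were Rps9 (r = 0.99), Rps19 (0.98), Rpl8 (0.96) and Rpl41 (0.96). The lowest values were those of Rps27a (-0.59), Rpl22l1, a paralog of Rpl22 (-0.43), and Rpl32l (-0.41).

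Rpl12 had the smallest p of the set. Its protein sits at the base of the stalk of the large subunit, and the gene lies at chr2:32851571-32855357 in mm39, the build of the counts. It was at 14.1, 17.0 and 17.6 CPM in wild type replicates 1, 2 and 3 (410, 449 and 594 counts). In SRA-/- replicates 1, 2 and 3 it was at 32.01, 20.1 and 26.2 CPM (1471, 603 and 578 counts). The 3 SRA-/- libraries were all higher, with the lowest of them 20.1 against a wild type maximum of 17.6 CPM. The edgeR log2 fold change was 0.69 with SE 0.21 (95% interval 0.21 to 1.16), and its adjusted p was 0.9999 (unadjusted p 0.00924). Without SRA-/- replicate 1, the highest library, it was 0.51 with an unadjusted p of 0.0537. Exons of Lrsam1 and the snoRNA gene Snora65 overlap those of Rpl12, and counting used no strand, so reads of these genes cannot all be told apart.

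The 3 other genes with the highest fold changes outside the Rps3a family were also not called. Rps13, a small subunit protein, was at 7.70, 8.85 and 8.59 CPM in wild type and 12.9, 8.32 and 15.9 CPM in SRA-/- replicates 1, 2 and 3. SRA-/- replicate 2 lay within the wild type range while SRA-/- replicates 1 and 3 were above it. Its log2 fold change was 0.56 with SE 0.25 (edgeR unadjusted p 0.0504), and it was 0.34 without SRA-/- replicate 3. Adding the counts of its 7 named pseudogenes, which summed to more CPM than the gene, brought it to 0.25. Rps27a encodes a fusion of ubiquitin with a small subunit protein. It was at 7.90, 6.11 and 4.205 CPM in wild type and 7.07, 7.52 and 9.53 CPM in SRA-/- replicates 1, 2 and 3. The groups overlapped, and the log2 fold change was 0.40 with SE 0.27, or 0.13 with its 3 named pseudogenes added. It was 0.19 without wild type replicate 3 and 0.64 without wild type replicate 1. Rpl3l, the paralog of Rpl3 known from striated muscle, was near the limit of detection. The wild type counts were 17, 10 and 13, and those of SRA-/- replicates 1, 2 and 3 were 56, 26 and 13. In CPM the lowest SRA-/- library (0.590) was barely above the highest wild type library (0.584). Its log2 fold change was 1.01 with SE 0.45, and 0.70 without SRA-/- replicate 1.

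**Figure D3:**
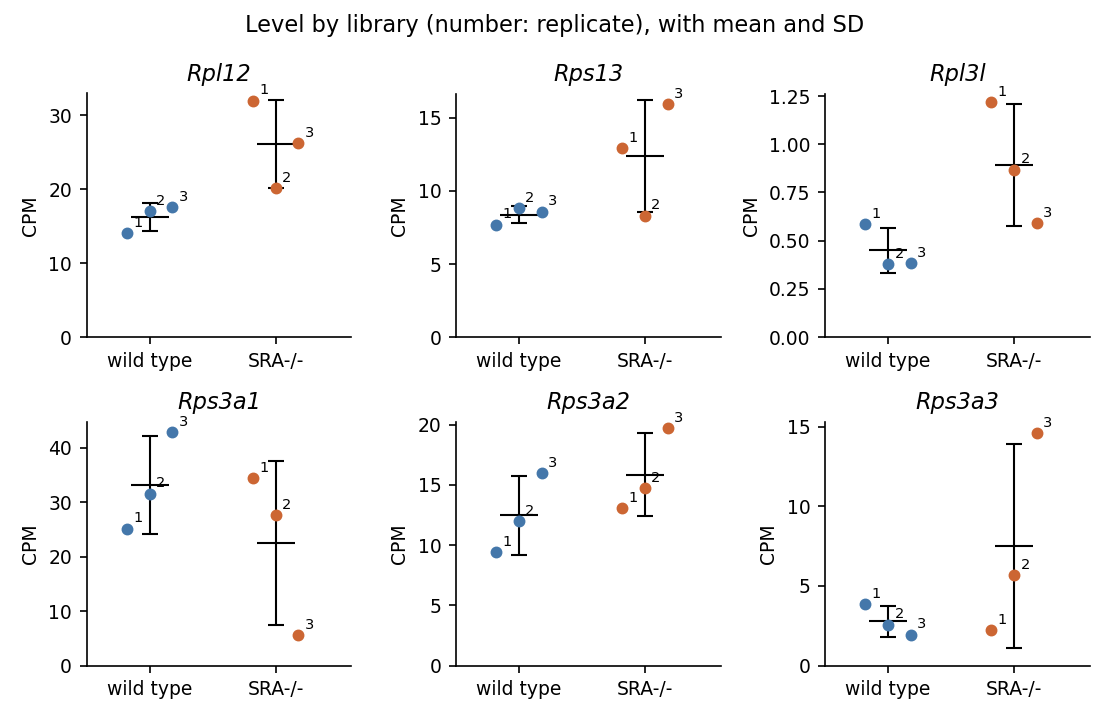
CPM of 6 ribosomal protein genes in each library (points numbered by replicate), with the group mean as a bar and the SD as whiskers (n = 3). Rpl12 is higher in each SRA-/- library, and SRA-/- replicate 3 is the lowest of all for Rps3a1 and the highest of all for Rps3a3.

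The counts of the 3 Rps3a genes were split most differently in 1 library, SRA-/- replicate 3. Rps3a1 (chr3:86045247-86050009, mm39) is the spliced gene of a small subunit protein near the mRNA exit. Rps3a2 (chr14:88360453-88361244) and Rps3a3 (chr13:108807137-108807931) are copies whose exon lengths, 792 and 795 bases, span the whole gene with no intron. Rps3a1 was at 25.2, 31.6 and 42.9 CPM in wild type and 34.5, 27.7 and 5.67 CPM in SRA-/- replicates 1, 2 and 3. Rps3a2 was at 9.42, 11.997 and 15.99 CPM in wild type and 13.1, 14.8 and 19.7 CPM in SRA-/- replicates 1, 2 and 3. Rps3a3 was at 3.85, 2.58 and 1.95 CPM in wild type and 2.22, 5.68 and 14.6 CPM in SRA-/- replicates 1, 2 and 3. SRA-/- replicate 3 thus held the lowest Rps3a1 value of the 6 libraries and the highest of both copies.

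As a share of the 3 genes' counts, Rps3a1 held 65.5%, 68.4% and 70.5% in wild type replicates 1, 2 and 3. In SRA-/- replicates 1 and 2 it held 69.3% and 57.5%. In SRA-/- replicate 3 it held 14.2% (exact Clopper-Pearson 95% interval 10.98 to 17.7%, on counts divided by 2 since mates were counted singly, for counting error only). The SRA-/- replicate 3 share lay apart from the other 5, and Rps3a3 held 36.5% there against 3.21% to 11.8% in the others. To a smaller extent SRA-/- replicate 2 also departed, with an interval of 53.8 to 61.1% for Rps3a1. The lowest bound among the remaining libraries was 61.4%, in wild type replicate 1. The sum of the 3 genes did not separate the groups: it was 48.5 ± 11.4 CPM in wild type and 46.0 ± 5.22 CPM in SRA-/- libraries (SD, n = 3), with a log2 fold change of -0.08, SE 0.20 and an unadjusted p of 0.711 in edgeR. Fitted alone, Rps3a3 had a log2 fold change of 1.41 with SE 0.58 (edgeR unadjusted p 0.0379), and 0.49 with p 0.319 without SRA-/- replicate 3. Rps3a1 had -0.55 with SE 0.51, and -0.10 without that library, and Rps3a2 had 0.34 with SE 0.25, and 0.15 without that library. Reads that align to several places were not counted, so the split of near-identical genes rests on the reads that tell them apart, and the cause of the shift in this library was not tested.

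Among the other paralogs, 5 kept a steadier share beside their parent gene. Rps4l took 6.68% to 11.9% of the counts of Rps4x and Rps4l together, Rpl22l1 14.2% to 24.8% of Rpl22 and Rpl22l1, and Rpl7l1 26.2% to 33.0% of Rpl7 and Rpl7l1. Rps27l, a paralog induced by p53, took 53.7% to 70.0% of Rps27 and Rps27l, and Rpl36al 36.5% to 55.4% of Rpl36a and Rpl36al. In each of these 5 pairs the wild type and SRA-/- ranges overlapped. Rpl3l, with few counts, took 1.11% to 3.35% of Rpl3 and Rpl3l, a wide range for so small a share. The log2 fold changes were -0.01 for Rps4l, 0.04 for Rpl22l1, -0.08 for Rpl7l1, -0.08 for Rps27l and 0.37 for Rpl36al, with SE of 0.19 to 0.33 and no adjusted p under 0.9999 in edgeR. Rpl36al was at 0.17 without SRA-/- replicate 1. Rpl10l and Rpl39l, known from testis, were at or near 0. Rpl10l and Rps12l1 had 0 counts in each of the 6 libraries. Rpl39l counts were 0, 2 and 6 in wild type replicates and 5, 0 and 0 in SRA-/- replicates 1, 2 and 3, none above the 6 counts set as floor, so no fold is given.

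The P stalk recruits elongation factors to the large subunit and consists of Rplp0 with Rplp1 and Rplp2. Rplp0 was at 104, 131 and 135 CPM in wild type and 128, 144 and 116 CPM in SRA-/- replicates 1, 2 and 3. Rplp1 was at 65.0, 68.6 and 68.3 CPM in wild type and 69.6, 88.9 and 56.5 CPM in SRA-/- replicates 1, 2 and 3. Rplp2 was at 17.6, 19.4 and 19.9 CPM in wild type and 21.3, 21.9 and 18.5 CPM in SRA-/- replicates 1, 2 and 3. All 3 genes overlapped between the groups, with log2 fold changes of 0.07, 0.09 and 0.12 and 95% intervals between -0.35 and 0.53. Rplp2 was at 0.069 without SRA-/- replicate 2 and 0.19 without SRA-/- replicate 3.

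Rpl5 and Rpl11 join 5S ribosomal RNA in a particle that enters the large subunit and that can also bind Mdm2, the ubiquitin ligase of p53. Rpl5 was at 10.4, 10.8 and 11.1 CPM in wild type and 9.95, 8.92 and 13.1 CPM in SRA-/- replicates 1, 2 and 3. Rpl11 was at 10.9, 13.4 and 14.0 CPM in wild type and 14.0, 9.09 and 13.3 CPM in SRA-/- replicates 1, 2 and 3. The wild type values of Rpl5 lay inside its SRA-/- range. The log2 fold changes were -0.02 (SE 0.20) and -0.07 (SE 0.22).

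The genes with the lowest fold changes besides Rps3a1 were Rps3, Rpl32l, Rps14 and Rpl39. Rps3, a small subunit protein at the mRNA entry, was at 120, 227 and 312 CPM in wild type and 206, 165 and 179 CPM in SRA-/- replicates 1, 2 and 3. Rps14, another small subunit protein, was at 73.9, 123 and 190 CPM in wild type and 128, 90.4 and 123 CPM in SRA-/- replicates 1, 2 and 3. In both genes the wild type libraries spanned the SRA-/- range on either side. The log2 fold changes were -0.26 for Rps3 (SE 0.31), -0.18 for Rps14 (SE 0.31), -0.23 for Rpl32l (SE 0.26) and -0.17 for Rpl39 (SE 0.25). Without wild type replicate 3 those of Rps3, Rps14 and Rpl39 were 0.08, 0.21 and 0.10, and without SRA-/- replicate 3 that of Rpl32l was -0.13.

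The genes differed far more from each other than between groups. Levels between genes are compared as CPM per kilobase of the exon length in the files, which adds the exons of all isoforms, for the 79 tested genes outside the listed paralogs. The median was 9.48 CPM per kilobase, and the highest gene stood 143-fold above the lowest. Rplp1 led at 139 CPM per kilobase (113 to 178 over the 6 libraries). Rpl8, a protein near the peptidyl transferase centre, followed at 117 (94.0 to 136), Rpl4, which lines the exit tunnel, at 111 (81.2 to 148) and Rps15, near the decoding centre, at 101 CPM per kilobase (83.7 to 120). The ranges of these 4 over the 6 libraries overlap one another, and their order within each library is not given here. Rpl41, a very short protein, came next at 83.9 CPM per kilobase (52.5 to 111), below the range of Rplp1.

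At the other end stood Rpl23a, at 0.977 CPM per kilobase (0.828 to 1.13), and Rpl36a, at 1.18 (0.849 to 1.48). Rps10, which is ubiquitinated on stalled ribosomes, was at 2.22 (1.44 to 2.83), Rpl5 at 2.73 (2.28 to 3.33) and Rpl31 at 2.82 CPM per kilobase (2.40 to 3.30). The range of Rpl23a lay below that of Rps10, while those of Rps10, Rpl5 and Rpl31 overlapped. Pseudogenes named after Rpl23a, Rpl36a, Rps10 and Rpl31 summed to 8.59, 19.96, 24.9 and 23.2 CPM, beside 0.827, 1.94, 5.14 and 4.69 CPM of the genes. Those of Rpl5 summed to 0.754 beside 10.7 CPM. The order of the 79 genes was much alike in all libraries, with Spearman coefficients of 0.93 to 0.99 over the 15 pairs of libraries as a description across genes. The 4 members on the X chromosome, Rps4x, Rpl39, Rpl10 and Rpl36a, were at 30.4, 8.30, 7.99 and 1.18 CPM per kilobase. Undivided by length, the 10 genes highest in CPM held 45.3% of the CPM of the set, and 6 of them were also among the 10 highest per kilobase.

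**Figure D4:**
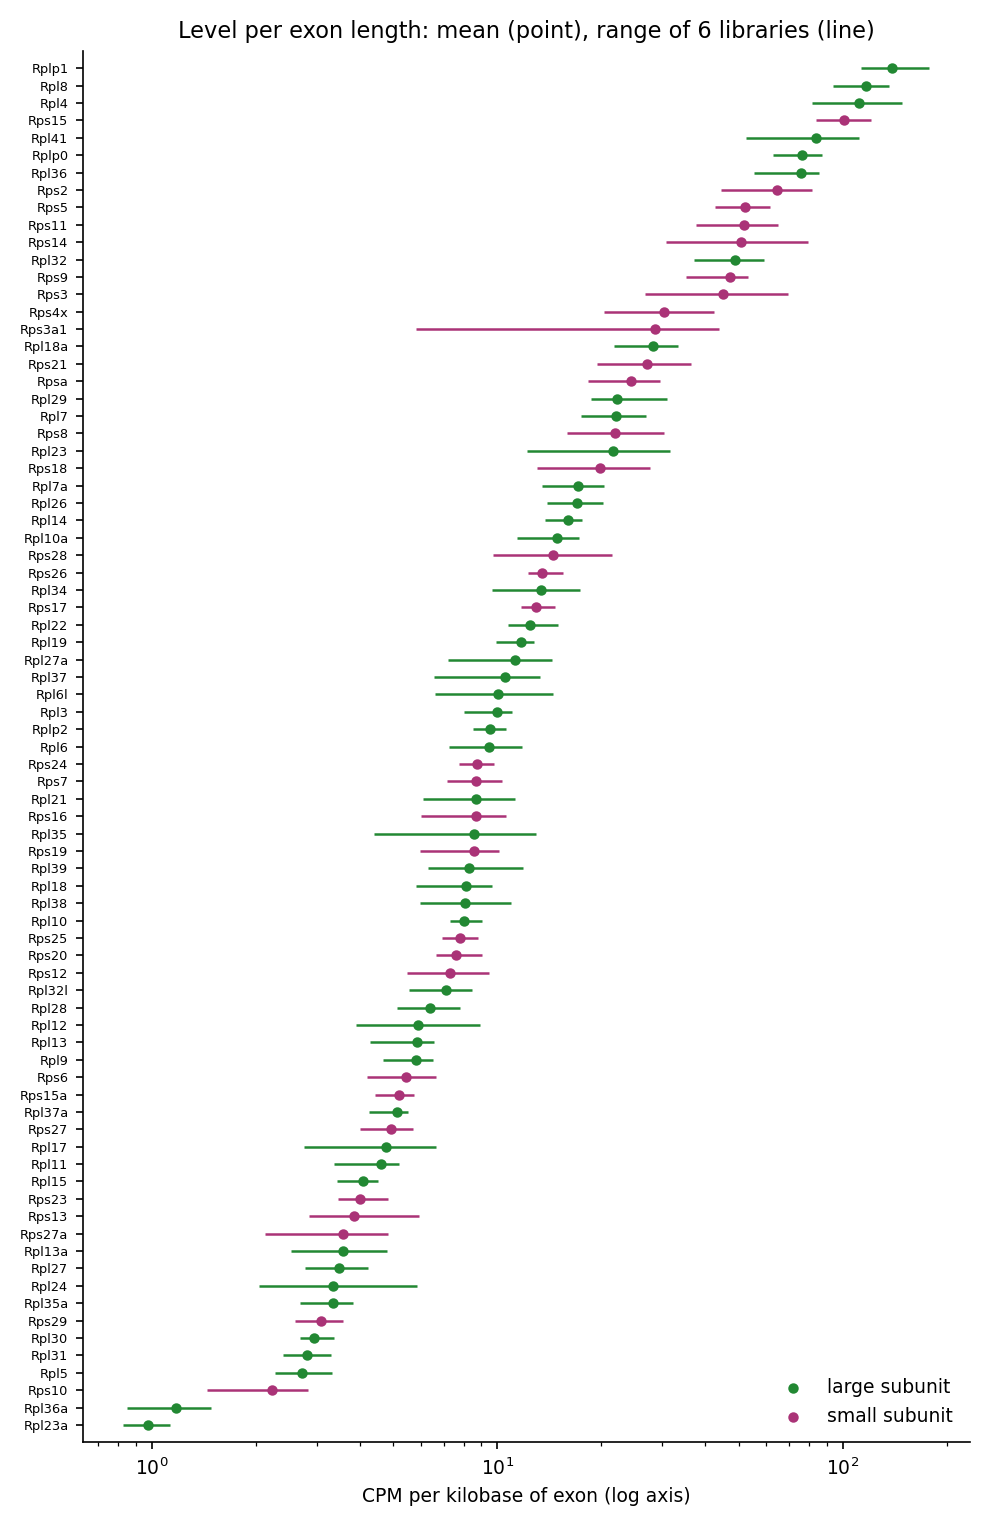
Level of the 79 tested ribosomal protein genes outside the listed paralogs, as CPM per kilobase of exon on a log axis, with the mean as a point and the range over 6 libraries as a line (green, large subunit; purple, small subunit). Genes of both subunits are spread over the whole range, from 0.977 for Rpl23a to 139 for Rplp1, and Rps3a1 has the widest line.

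The level per kilobase varied with the number of pseudogenes named after a gene. The tables list 321 such pseudogenes of 64 members, counting only entries marked by -ps. Copies under other names are not seen this way. Rps3a1 is thus among the genes without one, although Rps3a2 and Rps3a3 are copies of it. Rpl32l and Rpl6l, whose exons span the whole gene with no intron, are among them too. The median was 27.1 CPM per kilobase for the 17 genes without one, 8.71 for the 39 with 1 to 4 and 7.99 for the 23 with 5 or more, and the Spearman coefficient over the 79 genes was -0.30, a description across genes of the same libraries. Reads that align both to a gene and to a copy elsewhere were not counted under the authors' settings. The part of this in the levels was not tested. Rpl23a, with 14 named pseudogenes, and Rpl31, with 24, are among the 5 lowest genes, but Rps2, with 12, stood among the 10 highest.

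**Figure D5:**
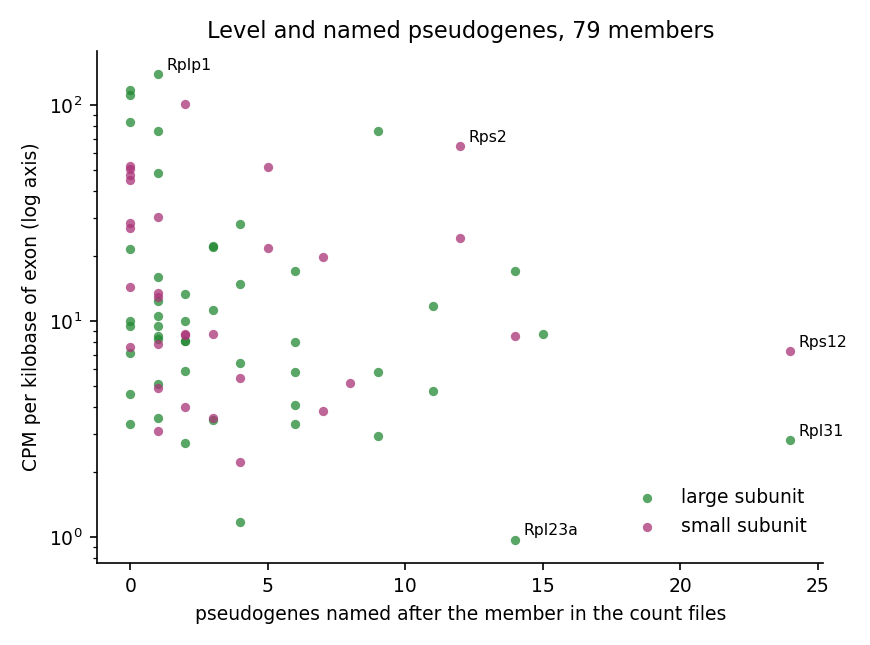
Level of the 79 genes in CPM per kilobase (y axis, log scale) against the number of pseudogenes named after them (x axis). The genes above 80 CPM per kilobase have 0 to 2 named pseudogenes, while those with 14 or more lie below 20 CPM per kilobase.

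Counts assigned to the pseudogenes themselves were not small. They amounted to 24.8% to 27.8% of the counts of the 90 genes in a library, with means of 26.4% ± 0.682 in wild type and 26.2% ± 1.503 in SRA-/- libraries (SD, n = 3). For 15 genes the named pseudogenes had more CPM than the gene. Those of Rps16 summed to 100 CPM beside 10.97 CPM of the gene, and those of Rps6, the small subunit protein phosphorylated by S6 kinase, to 41.5 beside 8.65 CPM. A level read from the gene alone leaves out these counts, and whether their reads came from the gene was not tested. Adding the pseudogene counts to each member left 0 genes called and a median log2 fold change of 0.019.

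Within 23 members, on the same strand, lie 31 genes named Snora or Snord with a number. Such snoRNAs guide modifications of ribosomal RNA and other RNAs. SnoRNA genes under other names were not looked for. Of the 15 that also overlap an exon of the host as annotated, 14 had 0 counts in each library. Reads over 2 genes were not assigned under the authors' settings. Of the 16 that do not, 2 had 0 counts throughout, and the highest was Snord15a in Rps3, with counts of 272, 243 and 510 for wild type, then 449, 278 and 222 for SRA-/- replicates 1, 2 and 3. It followed neither group, with a log2 fold change of -0.21 and SE 0.23. The 23 host genes found by name had a median log2 fold change of 0.053. The other 64 tested members, which can include hosts of snoRNAs under other names, had one of 0.026. In all, 40 of the 90 genes overlap an exon of some other gene.

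Fau and Rack1, ribosomal proteins with other names, were not called either. Fau, a ubiquitin-like fusion with a small subunit protein, was at 5.39 ± 0.9001 CPM in wild type and 5.32 ± 0.0883 CPM in SRA-/- libraries (SD, n = 3). Rack1, a scaffold on the small subunit, was at 129 ± 8.28 and 130 ± 15.8 CPM. The log2 fold changes were -0.01 for Fau and 0.01 for Rack1. Each group mean lay within 1 SD of the other.

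The genes that make, serve and regulate ribosomes were likewise without a called change. Of 7 translation elongation factors 0 were called (median log2 fold change -0.10), and the smallest p belonged to Eef1g and Eef1d, subunits of the exchange factor of eEF1A, at -0.20 and -0.12. Eef1d was at -0.0095 without wild type replicate 3 and -0.21 without wild type replicate 1. Of 34 initiation factors 0 were called (median -0.03). Eif4a1, the helicase that unwinds mRNA leaders, was at 146, 164 and 159 CPM in wild type and 216, 144 and 237 CPM in SRA-/- replicates 1, 2 and 3, with overlap and a log2 fold change of 0.35, and Eif2b3 had 0.26. Without SRA-/- replicate 3 these were 0.21 and 0.12, and Eif2b3 was at 0.44 without SRA-/- replicate 1. Eif4a1 was at 0.54 without SRA-/- replicate 2. Of 55 ribosome assembly genes 0 were called (median 0.06, with 40 of 55 above 0, against 9924 of all 20541 tested genes). Rrp12, needed for maturation and export of the subunits, was at 29.9, 32.8 and 41.5 CPM in wild type and 44.6, 45.9 and 51.2 CPM in SRA-/- replicates 1, 2 and 3. It was the 1 gene of the 55 without overlap between groups (3.97% of all tested genes were higher in every SRA-/- library). Its log2 fold change was 0.44 with SE 0.18 and an unadjusted p of 0.0341 in edgeR (adjusted p 0.9999). It was also the 1 gene of the 55 at an unadjusted p under 0.05 (3.22% of all tested genes). Without wild type replicate 1 its log2 fold change was 0.35. Utp4, of the small subunit processome, had 0.37.

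Of 14 genes of RNA polymerase I and its factors, which transcribe ribosomal RNA, 0 were called (median 0.08). Taf1a had a log2 fold change of 0.36 and Polr1a, the largest subunit, 0.20, which was 0.11 without SRA-/- replicate 3 and 0.32 without SRA-/- replicate 1. Of the 12 tested chaperones and importers of ribosomal proteins 0 were called (median -0.06), with 0.34 for Grwd1, a chaperone of Rpl3, and -0.13 for the importin Ipo9. Grwd1 was at 0.093 without wild type replicate 1, and Ipo9 at -0.027 without wild type replicate 3 and -0.21 without wild type replicate 1. Of 19 genes of TOP mRNA regulation and mTORC1 0 were called (median 0.01). Eif4ebp1, the repressor of cap-dependent translation that mTORC1 phosphorylates, was at 24.8, 27.4 and 22.1 CPM in wild type and 35.0, 26.9 and 36.0 CPM in SRA-/- replicates 1, 2 and 3, with overlap and a log2 fold change of 0.40 (SE 0.18). Tbc1d7, of the TSC complex, had -0.26, which was -0.10 without wild type replicate 1 and -0.47 without SRA-/- replicate 2. Of 12 genes of ribosome rescue and quality control 0 were called (median 0.03), with 0.23 for Gtpbp2 and 0.15 for Zfp598, the ligase that ubiquitinates Rps10 on collided ribosomes. Zfp598 was at 0.081 without SRA-/- replicate 3.

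Mitochondrial ribosomal proteins, which serve a separate ribosome, had a lower median. Of 77 tested genes 0 were called, the median log2 fold change was -0.11, and 55 lay below 0 (10617 of all 20541 tested genes did). In 7 of the 77 every SRA-/- library was lower (9.09%, against 3.33% of all tested genes). In 0 every SRA-/- library was higher (3.97% of all). Mrps33 was at 0.790, 1.21 and 1.01 CPM in wild type and 0.740, 0.434 and 0.545 CPM in SRA-/- replicates 1, 2 and 3, with a log2 fold change of -0.79 (SE 0.41). Mrpl24 was at 19.2, 21.8 and 29.5 CPM in wild type and 18.3, 17.6 and 19.8 CPM in SRA-/- replicates 1, 2 and 3, with -0.34 (SE 0.20), or -0.14 without wild type replicate 3. The difference between this list and the cytosolic genes was not tested. With 3 libraries against 3, an exact permutation test of a single gene cannot give a p below 0.1.

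Neutrophil, B cell and pancreatic acinar marker sums did not overlap between the groups. The 6 neutrophil markers summed to 14.8 to 38.1 CPM in wild type and 40.7 to 162 CPM in SRA-/- libraries, and the 5 B cell markers to 8.20 to 10.4 and 16.7 to 24.7 CPM, with 0 of the 11 called and none at 0 in any library. At an unadjusted p under 0.05 edgeR had all 6 neutrophil and 3 of the 5 B cell markers (3.22% of all tested genes). The log2 fold changes of all 11 lay above 0. The 7 pancreatic acinar markers went the other way, with 0 of 7 log2 fold changes above 0 and 0 called. They summed to 350 to 681 CPM in wild type and 2.32 to 252 CPM in SRA-/- libraries, with Cpa1, Cpb1, Prss2 and Pnlip at 0 in at least 1 library. The sums of stellate cell, cholangiocyte, erythroid and T and NK cell markers overlapped between the groups. The part of any of these lists in the levels of ribosomal protein genes was not tested.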

How the data were processed

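Total RNA was depleted of ribosomal RNA and made into libraries with a KAPA kit, per the labels' protocols, so mRNA and unspliced RNA are both read. FastQC, STAR and featureCounts were used with build mm39, per the submitters' processing notes. The deposited values are raw counts per gene over exons on GENCODE vM26 with featureCounts 2.0.2, paired-end, without strand, per the file headers. The header's command does not count pairs as 1, so each mate was counted: 68.5% to 71.9% of counts of 1 to 4 were even. Reads aligned to several places or lying over several genes were not counted. No source used here gives the aligner's version or any trimming.

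Counts were fitted in R 4.3.3 with edgeR 4.0.16 (filterByExpr, TMM factors of 0.896 to 1.08, robust glmQLFit, glmQLFTest on group alone) over 20541 genes, with Benjamini-Hochberg adjustment and a threshold of 0.05. The common biological coefficient of variation was 0.282. DESeq2 1.42.0 and limma 3.58.1 were alternatives, beside other size factors, filters, removal of mitochondrial and hepatocyte genes, pseudogene counts added, a replicate block and each library left out. The procedure was tested on simulated data. Replicate numbers were not taken as a pairing in the main fit. The members and lists were chosen with earlier results of these data known. Named were the P stalk, 5S particle and listed paralogs, the 5 highest and 5 lowest by level and by fold change, members at an unadjusted p under 0.05 and 2 genes per pathway list. Those outside this rule, such as the genes with the longest tracts, were chosen after their values were seen. The symbol Polr1g was not matched, and 1 gene that the rule named is not reported here. Python 3.11.15 and matplotlib 3.10.9 drew the figures.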

Additional observations from a re-analysis of the deposited data

How the results depend on the processing

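Under each of the 16 settings of the fit, 0 ribosomal protein genes were called. All genes called numbered 10, and 68 with DESeq2, 75 with limma-voom, 32 without a filter and 5 with the replicate block, and 3 (without SRA-/- replicate 3) to 40 (without SRA-/- replicate 2) with 1 library left out. The members' median log2 fold change was 0.037 with the replicate block, -0.02 with limma-voom and -0.041 to 0.13 with 1 library left out, lowest without wild type replicate 1. Same-numbered libraries had correlations of -0.29, -0.14 and -0.13, against -0.086 to 0.26 for libraries of unlike number. Libraries were thus not more alike by number, but such values cannot tell whether same-numbered mice were handled together. Without mitochondrial and hepatocyte genes in the total, the mean share of counts was 0.379% in wild type and 0.366% in SRA-/- libraries. With pseudogenes added it was 0.383% in wild type and 0.369% in SRA-/- libraries. With 1 library left out, the medians of RNA polymerase I and mitochondrial ribosomal genes kept their sign, and those of the other 7 lists turned at least once. Without length, 6 of the 10 highest genes remained. No called value changed, but small fold changes turned sign for 22 of 47 named genes, and the cause was not tested.

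With limma-voom Rpl23a was at -0.0063, Rpl7l1 0.026, Rplp0 -0.025, Rps10 -0.11, Rps15 -0.027, Rps27l 0.082, Rps4l 0.30 and Rack1 -0.10. With library totals alone Rpl41 was at -0.030, Rpl8 -0.012 and Rack1 -0.013. With pseudogenes added Rpl31 was at -0.062, Rpl36a -0.14 and Rps10 -0.033. Without wild type replicate 1 and SRA-/- replicate 3 together, a pair chosen after seeing the data, Rpl41 was at -0.20, Rpl8 -0.049, Rps10 -0.27 and Rps27l 0.023. Rps4l was at 0.0011 without mitochondrial and hepatocyte genes and 0.025 with the replicate block. With 1 library left out the ranges were -0.19 to 0.10 for Rpl11, -0.11 to 0.23 for Rpl22l1, -0.060 to 0.17 for Rpl23a, -0.031 to 0.15 for Rpl31, -0.35 to 0.10 for Rpl39, -0.24 to 0.19 for Rpl4, -0.21 to 0.29 for Rpl41, -0.19 to 0.091 for Rpl5, -0.17 to 0.10 for Rpl7l1, -0.096 to 0.15 for Rpl8, -0.033 to 0.14 for Rplp0, -0.092 to 0.23 for Rplp1, -0.11 to 0.23 for Rps10, -0.45 to 0.21 for Rps14, -0.11 to 0.15 for Rps15, -0.23 to 0.029 for Rps27l, -0.55 to 0.077 for Rps3, -0.17 to 0.22 for Rps4l, -0.37 to 0.061 for Eef1g, -0.15 to 0.068 for Fau and -0.092 to 0.071 for Rack1.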
